A study of Mus musculus with 8 samples.

Results

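The circadian clock genes are 10 genes of the daily transcriptional oscillator: Arntl (also called Bmal1), Clock, Cry1, Per1, Per2, Per3, Ciart, Nr1d1, Nr1d2 and Dbp. They were taken by gene name from the gene tables of 8 mouse brain RNA-seq libraries, 10 of 54532 genes listed for the first experiment and 10 of the 28229 genes listed for the second, and none was chosen by its values. The first experiment holds 2 libraries of PTS + RS mice, which had a photothrombotic stroke (a cortical infarct made by illuminating the skull after a photosensitive dye is injected) and daily restraint stress, and 2 libraries of RS mice, which had restraint stress and no stroke. All 4 are labelled cortex. The second experiment holds PTS + RS mice only. It has 2 libraries of mice given the HDAC3 inhibitor RGFP109 at 60 mg/kg under the skin once per day. The study's methods state 2 weeks of dosing, and a figure legend states 21 consecutive days. The other 2 libraries are of control mice labelled NaCl, called vehicle in the study. In each of these groups replicate 1 is labelled cortex and replicate 2 amygdala, so each combination of treatment and tissue is a single library. The mice were male C57BL/6 animals kept on a light/dark cycle, mice in the study's open-field test were around 3 months old while the age of those sequenced is not given in the sources used here, every group was restrained, in the morning, and all libraries are labelled Day 21. The clock time of tissue collection, and whether a library is 1 mouse or several, are not given in the sources used here, so p-values measure the spread between libraries, which may be technical.

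The clock is a feedback loop that runs in nearly every cell and gives many transcripts a daily rhythm. The proteins of Arntl and Clock pair up and bind E-box sequences, which raises transcription of the Per and Cry genes, Ciart, Nr1d1, Nr1d2 and Dbp; the PER and CRY proteins then switch the pair off. NR1D1 and NR1D2 (REV-ERBα and REV-ERBβ) bind ROR response elements (ROREs) and repress Arntl, so Arntl is lowest when its targets are high. DBP binds D-box sequences and carries the rhythm to output genes and to Per genes. In mouse tissues the peaks usually follow each other in the order Nr1d1, Dbp, Per1 and Per3, Per2, Cry1 and then Arntl, while Clock changes little. Forebrain tissue follows the pacemaker of the suprachiasmatic nucleus, and Per1 and Per2 can also be induced by glucocorticoids and by neuronal activity. The levels of these genes relative to each other therefore bear on the question of whether all libraries were collected at one phase of the day.

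The sequences before the transcription starts show which of these binding motifs each gene carries nearby. RefSeq windows on GRCm38.p6 reaching from 250 bases before to 50 bases after a start were at hand for 9 of the 10 genes, 13 windows in all. Both strands were searched for the E-box CACGTG, the E′-box CACGTT, the D-box TTATGNAA, the RORE core TAGGTCA and the cAMP response element TGACGTCA. Of 32817 windows of all genes, 7.15% held the E-box, 4.69% the E′-box, 3.39% the D-box, 2.61% the RORE core and 1.79% the cAMP response element. The E-box occurred 3 times before Ciart and once each before Cry1 and Per1, the D-box 2 times before Per3 and once before Per1, and the E′-box once each before Cry1 and Nr1d1, where it reads AACGTG on the printed strand. The 250 bases before these starts are given here 5′ to 3′ with the motifs in capitals. No motif was found within the windows of Clock, Nr1d2 and Dbp, which says only that these letters are not there.
Ciart, chr3:95882229-95882478, minus strand: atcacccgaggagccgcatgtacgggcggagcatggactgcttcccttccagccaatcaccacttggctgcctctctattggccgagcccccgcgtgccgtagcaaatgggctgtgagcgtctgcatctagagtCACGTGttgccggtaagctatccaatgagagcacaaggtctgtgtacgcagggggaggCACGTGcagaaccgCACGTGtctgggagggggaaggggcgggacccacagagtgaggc
Per1, chr11:69098699-69098948, plus strand: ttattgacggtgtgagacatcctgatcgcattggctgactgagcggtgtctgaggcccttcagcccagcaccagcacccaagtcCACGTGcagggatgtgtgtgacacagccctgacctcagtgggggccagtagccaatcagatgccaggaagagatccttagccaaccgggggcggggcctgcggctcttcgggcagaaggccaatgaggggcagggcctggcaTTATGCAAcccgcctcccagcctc
Per3, chr4:151044666-151044915, minus strand: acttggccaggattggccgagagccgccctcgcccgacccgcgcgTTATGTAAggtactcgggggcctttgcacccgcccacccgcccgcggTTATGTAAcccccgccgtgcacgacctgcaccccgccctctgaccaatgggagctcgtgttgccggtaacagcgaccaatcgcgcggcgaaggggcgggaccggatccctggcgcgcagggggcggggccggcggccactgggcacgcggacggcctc
Cry1, chr10:85185055-85185304, minus strand: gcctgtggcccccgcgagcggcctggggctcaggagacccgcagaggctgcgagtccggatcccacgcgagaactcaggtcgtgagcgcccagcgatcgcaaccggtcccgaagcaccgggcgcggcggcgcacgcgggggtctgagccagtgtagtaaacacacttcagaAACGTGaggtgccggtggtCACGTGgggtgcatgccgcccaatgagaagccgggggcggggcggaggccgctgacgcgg
Nr1d1, chr11:98775378-98775627, minus strand: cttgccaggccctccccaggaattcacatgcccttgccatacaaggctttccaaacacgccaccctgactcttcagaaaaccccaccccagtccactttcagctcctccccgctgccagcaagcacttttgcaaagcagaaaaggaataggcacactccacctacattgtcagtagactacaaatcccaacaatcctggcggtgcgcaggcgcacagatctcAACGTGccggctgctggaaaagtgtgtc
The RORE core lies 31 bases after 1 of the annotated starts of Arntl, the gene that NR1D1 and NR1D2 repress, and is shown with its neighbouring bases.
Arntl, chr7:113207530-113207558, plus strand: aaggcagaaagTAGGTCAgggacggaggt

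The libraries held 15902013 to 21712033 read counts on genes, with 3.59% to 4.55% of them on mitochondrial genes. Levels are given as CPM, read counts scaled to the library's total, with the 8 libraries scaled together. Some libraries stood apart. The NaCl cortex library did so in both directions over 10 cortical genes. In it 4 lay below the range of the other 5 cortex libraries, Fezf2 and Nptx1 among them, 5 lay above it, Cux1 and Cux2 among them, and 1 lay within. Fezf2 was at 4.07 CPM there against 45.0 to 52.8 CPM, and Cux1 at 156 CPM against 45.3 to 66.6 CPM. Both amygdala libraries had high levels of striatal genes, with 49.3 and 49.1 CPM of the dopamine receptor gene Drd1 against 3.75 to 6.60 CPM in the 6 cortex libraries. Ttr, an abundant gene of the choroid plexus, was at 1337 to 3399 CPM in 4 libraries and at 14.4 CPM in PTS + RS replicate 2 and 1.86 CPM in the NaCl cortex library. Some of the results that rest on these libraries are also given without them below.

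All 10 clock genes are protein-coding and were detected in every library. In the tables (GRCm38) they lie at chr7:113207465-113314126 (Arntl), chr5:76209868-76304792 (Clock), chr10:85131700-85185064 (Cry1), chr11:69095217-69109960 (Per1), chr1:91415982-91459324 (Per2), chr4:151003652-151044665 (Per3), chr3:95878503-95882251 (Ciart), chr11:98767932-98775333 (Nr1d1), chr14:18204054-18239127 (Nr1d2) and chr7:45705088-45710203 (Dbp). By gene spans, Nr1d1 shares 1075 bases with Thra on the opposite strand, Dbp 737 bases with Sphk2 and Ciart 3749 bases with the antisense gene C920021L13Rik. The whole span of Per3, 41014 bases, lies within that of Camta1 on the same strand. Arntl and Clock overlap only genes with few counts, namely Gm45355, Ube2n-ps1 and Gm43658, whose counts over the first experiment were 3, 169 and 5. Whether the counting used strand is not given in the sources used here, so reads of the shared stretches cannot be told apart and the counts of Nr1d1, Dbp, Ciart and Per3 are uncertain to that extent. Per kilobase of the gene length in the tables, the mean over the 4 libraries of the first experiment ran from 23.0 CPM per kb for Nr1d1 to 2.83 CPM per kb for Ciart. Between them lay Per1 at 14.7, Nr1d2 at 12.997, Dbp at 8.14, Clock at 7.28, Per2 at 6.30, Arntl at 5.58, Per3 at 4.69 and Cry1 at 3.46 CPM per kb. In the second experiment Dbp stood higher in this order, at 26.1 CPM per kb in the cortex libraries, next to Per1 at 25.6 and Nr1d2 at 25.9 CPM per kb, while Arntl stood lowest there at 3.06 CPM per kb. Each of these means is over 4 or 2 libraries, and neighbours in the order were not tested against each other.

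**Figure D1:**
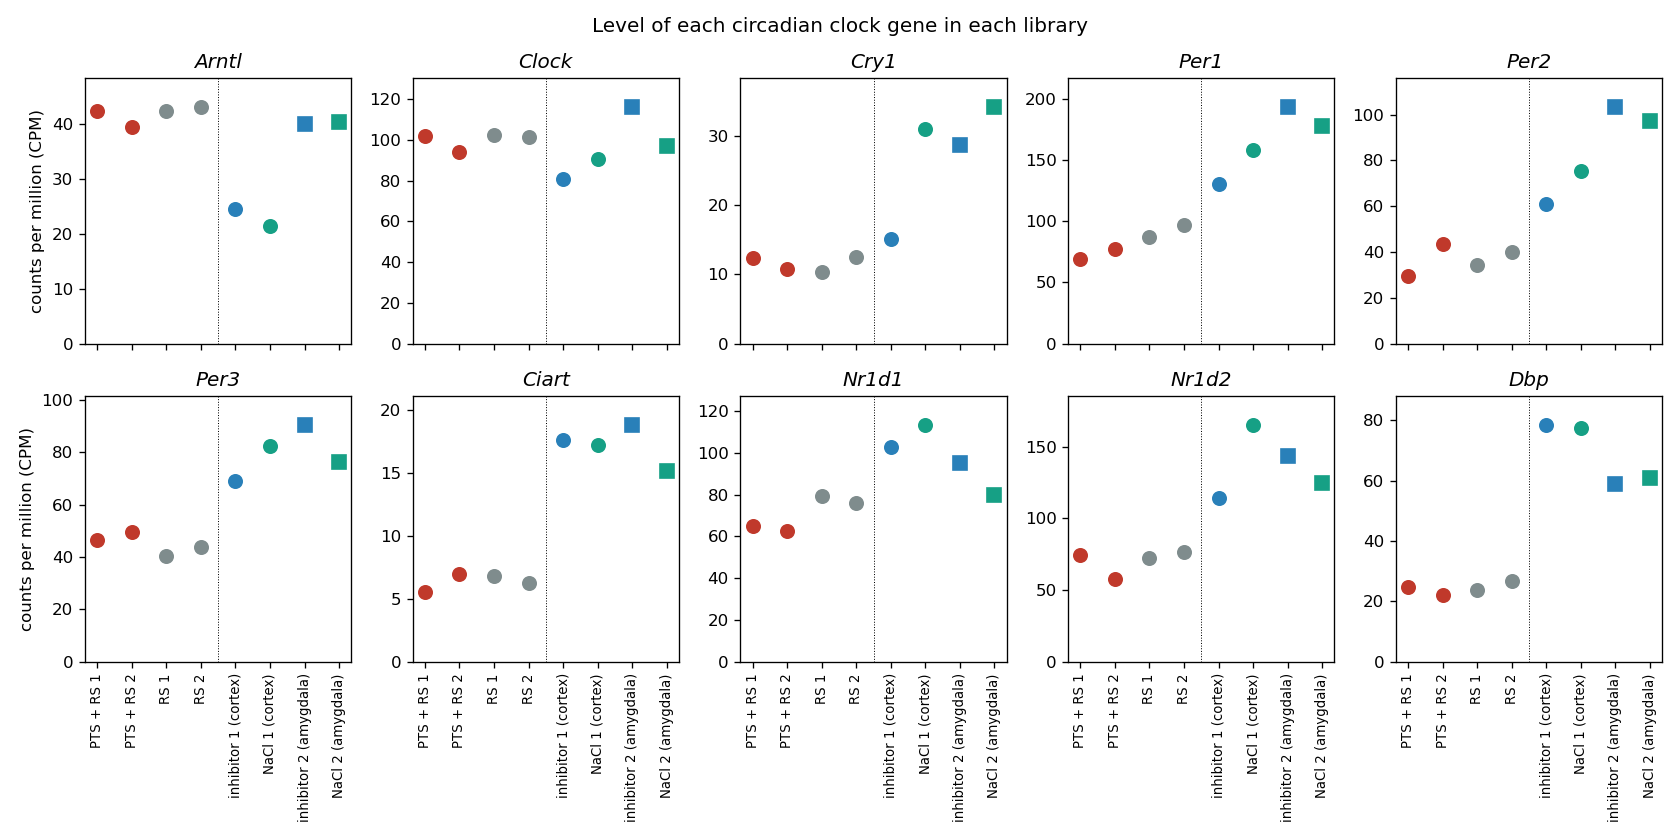
Level in CPM (vertical axis, from 0) of each clock gene in each of the 8 libraries, with PTS + RS in red, RS in grey, HDAC3 inhibitor in blue and NaCl in green, circles for libraries labelled cortex and squares for amygdala. The dotted line separates the first experiment from the second. All genes but Arntl and Clock are higher in all 4 libraries to the right of the line than in any to the left.

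The clock genes differed most between the 2 experiments, by up to 1.502 on the log2 scale in Dbp. Of the 10 genes, 8 (Cry1, Per1, Per2, Per3, Ciart, Nr1d1, Nr1d2 and Dbp) were higher in all 4 libraries of the second experiment than in any of the first, against 5.35% of 17312 genes tested, and none was lower in all 4, against 4.97% (10.3% in either direction). This comparison of 4 libraries with 4 was added after the levels had been seen. It sets drug or vehicle injection, tissue and everything else that separates the experiments on one side, so time of collection, handling and preparation cannot be told apart in it. In the edgeR quasi-likelihood fit, with p-values adjusted over all genes tested by the Benjamini-Hochberg method, 6 of the 10 rose (Dbp, Ciart, Per2, Per1, Nr1d2 and Per3), where 0.133% of all genes (23 of 17312) were called higher and 0.139% lower (0.271% in all). Amygdala libraries occur only in the second experiment. A fit with a term for tissue therefore sets the cortex pair of the second experiment against the first experiment. In that fit only Dbp and Ciart of the 6 genes above passed, and the adjusted p was 0.0843 for Per1, 0.0843 for Per2, 0.0674 for Per3 and 0.0739 for Nr1d2, where 0.0635% of all genes were called higher and 0.225% lower. In the edgeR fit without a term for tissue, 8 of the 10 lay at an unadjusted p under 0.05, against 16.4% of all genes. The median log2 fold change of the 10 in that fit was 0.98, and that of all genes tested was 0.0015.

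Dbp, the output factor of the loop, had 24.7 and 22.2 CPM in the PTS + RS libraries, 23.8 and 26.8 CPM in the RS libraries, 78.6 (inhibitor) and 77.6 (NaCl) CPM in the cortex libraries of the second experiment, and 58.9 (inhibitor) and 60.9 (NaCl) CPM in its amygdala libraries. All 4 second-experiment libraries lay above the first, and its cortex pair lay above its amygdala pair. Dbp rose 2.83-fold (log2 fold change 1.502, SE 0.12, 95% interval 1.22 to 1.78, adjusted p = 0.00410) and ranked 3 among 17312 genes by p. Ciart, which encodes a repressor of the Arntl and Clock pair and carries 3 E-boxes in the window above, had 5.56 and 6.97 CPM in the PTS + RS libraries, 6.83 and 6.26 CPM in the RS libraries, 17.6 (inhibitor) and 17.2 (NaCl) CPM in the cortex libraries of the second experiment, and 18.8 (inhibitor) and 15.2 (NaCl) CPM in its amygdala libraries. The second-experiment libraries were alike in Ciart whatever their tissue label, at more than 2 times the level of every library of the first. Ciart rose by a similar amount (log2 fold change 1.43, SE 0.13, 95% interval 1.13 to 1.72, adjusted p = 0.00573) and ranked 5.

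The Per genes encode the main repressors of the loop. Per1 had 69.2 and 77.3 CPM in the PTS + RS libraries, 86.9 and 96.7 CPM in the RS libraries, 130.3 (inhibitor) and 158 (NaCl) CPM in the cortex libraries of the second experiment, and 193 (inhibitor) and 177 (NaCl) CPM in its amygdala libraries. Its groups did not overlap between experiments, and the amygdala libraries were the highest (log2 fold change 1.00, SE 0.15, 95% interval 0.67 to 1.33, adjusted p = 0.0390). Per2 had 29.6 and 43.4 CPM in the PTS + RS libraries, 34.3 and 40.2 CPM in the RS libraries, 60.8 (inhibitor) and 75.5 (NaCl) CPM in the cortex libraries of the second experiment, and 103 (inhibitor) and 97.2 (NaCl) CPM in its amygdala libraries. It followed the order of Per1 within the second experiment, with the inhibitor cortex library lowest (log2 fold change 1.19, SE 0.19, 95% interval 0.77 to 1.62, adjusted p = 0.0490). Per3, with D-boxes in the window above in place of E-boxes, had 46.6 and 49.5 CPM in the PTS + RS libraries, 40.4 and 43.9 CPM in the RS libraries, 69.1 (inhibitor) and 82.3 (NaCl) CPM in the cortex libraries of the second experiment, and 90.5 (inhibitor) and 76.2 (NaCl) CPM in its amygdala libraries. It had the smallest fold change of the 3 (log2 fold change 0.82, SE 0.11, 95% interval 0.58 to 1.06, adjusted p = 0.0326).

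Cry1, the partner of the PER proteins whose transcript peaks late, was the least even member. It had 12.4 and 10.8 CPM in the PTS + RS libraries, 10.4 and 12.6 CPM in the RS libraries, 15.1 (inhibitor) and 31.0 (NaCl) CPM in the cortex libraries of the second experiment, and 28.6 (inhibitor) and 34.2 (NaCl) CPM in its amygdala libraries. The inhibitor cortex library lay close to the first experiment, and the other 3 second-experiment libraries lay well above it. Its fold change was 1.24 on the log2 scale (SE 0.23, adjusted p = 0.0820), which did not pass the threshold. Without the inhibitor cortex library it was 1.44 (adjusted p = 0.00152).

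Nr1d1 and Nr1d2, the repressors that act on Arntl, differed in size. Nr1d2 had 74.8 and 57.6 CPM in the PTS + RS libraries, 72.4 and 76.4 CPM in the RS libraries, 115 (inhibitor) and 166 (NaCl) CPM in the cortex libraries of the second experiment, and 144 (inhibitor) and 125 (NaCl) CPM in its amygdala libraries, and it rose in the second experiment (log2 fold change 0.97, SE 0.14, 95% interval 0.65 to 1.28, adjusted p = 0.0373). Nr1d1 had 64.7 and 62.5 CPM in the PTS + RS libraries, 79.2 and 76.0 CPM in the RS libraries, 103 (inhibitor) and 113 (NaCl) CPM in the cortex libraries of the second experiment, and 94.9 (inhibitor) and 79.8 (NaCl) CPM in its amygdala libraries. The lowest second-experiment library exceeded the highest RS library only slightly, and the difference did not pass the threshold (log2 fold change 0.47, SE 0.13, 95% interval 0.18 to 0.76, adjusted p = 0.145).

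Arntl and Clock, the activating pair, did not share the rise. Arntl had 42.5 and 39.6 CPM in the PTS + RS libraries, 42.5 and 43.2 CPM in the RS libraries, 24.5 (inhibitor) and 21.5 (NaCl) CPM in the cortex libraries of the second experiment, and 40.1 (inhibitor) and 40.5 (NaCl) CPM in its amygdala libraries. Only the cortex libraries of the second experiment were low, at about the same level under both treatments, and its amygdala libraries lay within the range of the first experiment. Over all 8 libraries Arntl did not pass the threshold (log2 fold change -0.40, SE 0.21, 95% interval -0.87 to 0.06, adjusted p = 0.364). With the term for tissue that ended the calls of the Per genes and Nr1d2 it was called lower (-0.87, adjusted p = 0.0214). The change in that fit is the one of the cortex pair. A direct edgeR fit of this pair against the first-experiment libraries did not call Arntl (-0.855, adjusted p = 0.0867). Both of these fits include the NaCl cortex library that stood apart. With that library left out and no term for tissue, the edgeR fit gave -0.27 for Arntl (adjusted p = 0.396). Clock had 102 and 93.9 CPM in the PTS + RS libraries, 103 and 101 CPM in the RS libraries, 80.8 (inhibitor) and 90.7 (NaCl) CPM in the cortex libraries of the second experiment, and 116 (inhibitor) and 97.0 (NaCl) CPM in its amygdala libraries, and its groups overlapped (log2 fold change -0.05, SE 0.11, 95% interval -0.31 to 0.20, adjusted p = 0.842).

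**Figure D2:**
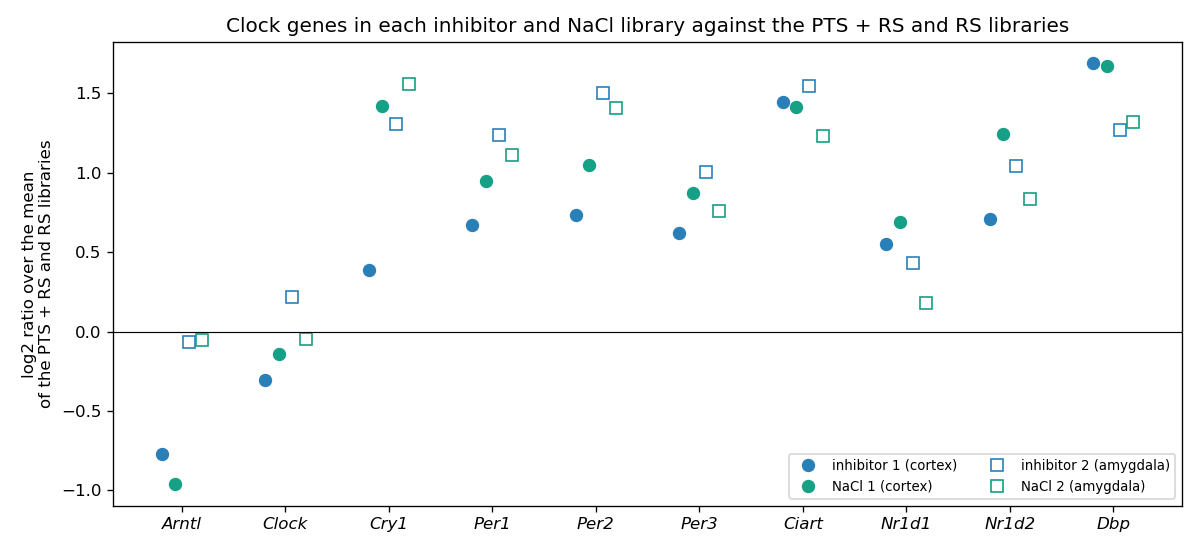
Log2 ratio (vertical axis) of each library of the second experiment over the mean of the 4 PTS + RS and RS libraries, for each clock gene, with filled circles for cortex and open squares for amygdala, inhibitor in blue and NaCl in green. Ciart, Dbp and the Per genes lie above 0 in all 4 libraries, Arntl lies below 0 in the cortex pair and near 0 in the amygdala pair, and Cry1 is 0.39 in the inhibitor cortex library against 1.31 to 1.56 in the other 3.

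The number of clock genes called depended on the libraries, and Dbp and Ciart were the steadiest. Both stayed past the threshold when any 1 of the 8 libraries was left out, with log2 fold changes of 1.43 to 1.59 for Dbp and 1.36 to 1.48 for Ciart. The count of clock genes called fell from 6 to 2 without any 1 of the 4 first-experiment libraries, without the inhibitor amygdala library and without the NaCl amygdala library. These fits called 0.0113% to 0.017% of all genes higher. It was 7 without the inhibitor cortex library, where 2.86% of all genes were called higher, and 6 without the NaCl cortex library, where 0.431% were. DESeq2 called 8 of the 10 and 3.67% of all genes higher. Among cortex libraries alone, 2 of the second experiment were set against the 2 PTS + RS libraries, whose mice are described as having the same stroke and stress. The fold changes kept their sign in all 10 genes, with 1.73 for Dbp, 1.47 for Ciart and -0.84 for Arntl. The tissue was not alike in this comparison. All 12 microglia genes were lower in the second experiment (median -1.99), summing to 441 (inhibitor) and 350 (NaCl) CPM against 1654 and 1423 CPM. All 12 immediate early genes were higher (median 1.48), 11 of them at an unadjusted p under 0.05 by edgeR. No gene passed the threshold in that smaller fit by edgeR (0% of 17544 genes, 9.87% at an unadjusted p under 0.05, where 8 of the 10 clock genes lay). Set against all 4 first-experiment libraries, the cortex pair gave 1 call among the clock genes, Dbp (1.69, adjusted p = 0.0119).

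Other gene groups differed in level between the experiments too, and their part in the clock genes' difference was not tested. The 12 immediate early genes, which neuronal activity induces, had fold changes above 0 in 12 of 12 cases with a median of 1.10. By edgeR all 12 lay under an unadjusted p of 0.05, against 16.4% of all genes, and 0 of the 12 passed the threshold. Their summed level was 277 to 556 CPM in the first experiment and 605 to 1323 CPM in the second, with the inhibitor cortex library at the low end. Fos, the best known of them, was at 9.80 to 11.8 CPM in the first and 18.6 to 74.9 CPM in the second. The 12 glucocorticoid-induced genes summed to 511 to 785 CPM in the first experiment, 597 (inhibitor) and 401 (NaCl) CPM in the second-experiment cortex libraries and 986 and 1141 CPM in its amygdala libraries. In this list 0 genes were called higher and 1, the metallothionein gene Mt2 (-2.61), lower. Mt2 had low levels, 2.56 to 5.27 CPM in the first experiment and 0.38 to 0.85 CPM in the second. The more abundant Mt1 of the same list overlapped, at 142 to 393 and 139 to 314 CPM. Of 8 temperature-responsive genes, Rbm3, a cold-induced RNA-binding protein gene, rose (0.72, adjusted p = 0.0326), and the other 7 did not pass. The 10 oligodendrocyte genes were all lower in the fit (median -0.77, 1 called, Opalin, -1.52), with summed levels of 5777 to 7769.8 and 3208 to 5156 CPM. The 12 microglia genes were also all below 0 (median -0.76, 0 called), and summed to 1654 and 1423 CPM in the PTS + RS libraries against 346 to 742 CPM in the other 6. In bulk tissue fewer cells of a type and less RNA per cell cannot be told apart.

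Ratios of 2 clock genes within a library need no scaling between libraries. They reuse the counts described above and were chosen after the levels had been seen, so they restate the split and are not separate support for it. Each ratio over Arntl was higher in every library of the second experiment than in any of the first. The ratio of Dbp to Arntl reads was 0.580 (0.514 to 0.655) and 0.560 (0.492 to 0.637) in the PTS + RS libraries and 0.559 (0.496 to 0.631) and 0.620 (0.548 to 0.702) in the RS libraries, each with its exact 95% interval for counting error only. These 4 intervals overlapped one another. In the cortex libraries of the second experiment it was 3.21 (2.86 to 3.60) with inhibitor and 3.62 (3.23 to 4.06) with NaCl, and in its amygdala libraries 1.47 (1.34 to 1.60) and 1.51 (1.37 to 1.65). The ratio thus had 3 levels, 1 for the first experiment and 1 for each tissue label of the second, and inhibitor and NaCl libraries of a tissue had overlapping intervals. The ratio of Per2 to Arntl reads ran from 0.696 to 1.10 in the first experiment and from 2.403 to 3.52 in the second, where the tissue labels did not separate. Nr1d1 over Arntl ran from 1.52 to 1.86 in the first experiment, was 2.36 and 1.97 in the amygdala libraries and reached 4.20 and 5.28 in the second-experiment cortex libraries. The interval of the NaCl amygdala library (1.80 to 2.16) overlapped that of RS replicate 1 (1.71 to 2.04). Ciart over Cry1, 2 genes with E-boxes before their starts, did not follow the split, with 0.449 to 0.658 in the first experiment, 1.17 in the inhibitor cortex library and 0.443 to 0.658 in the other 3.

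**Figure D3:**
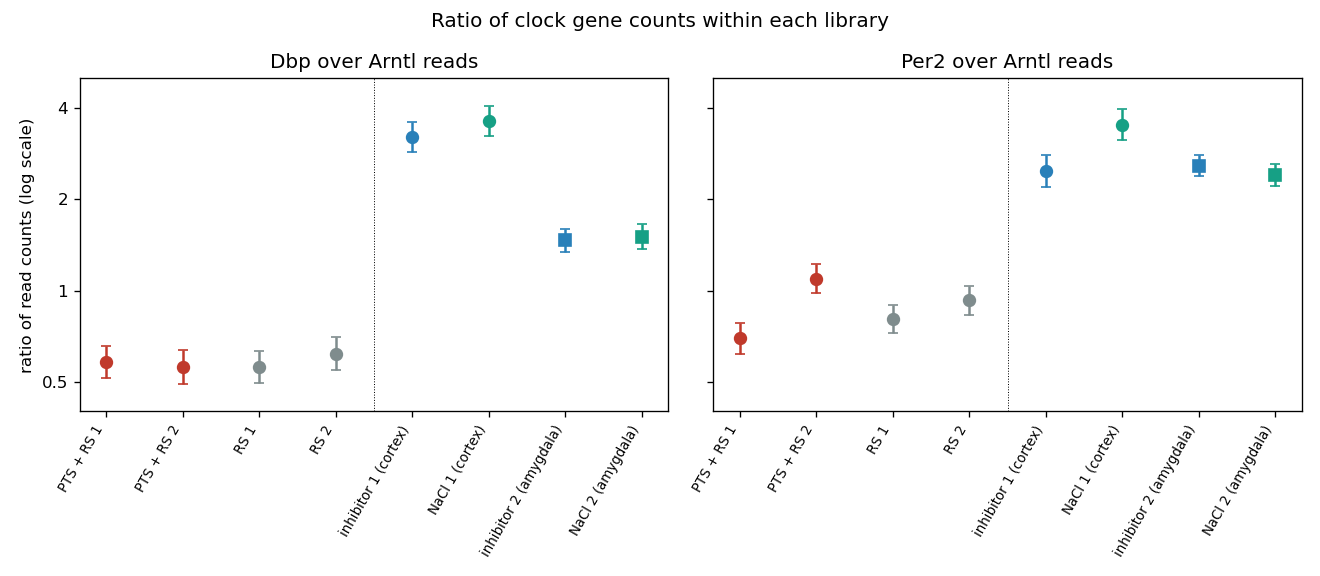
Ratio of Dbp to Arntl reads (left) and of Per2 to Arntl reads (right) in each library on a log axis, with bars for the exact 95% interval of counting error. The Dbp ratio lies near 0.6 in the 4 libraries of the first experiment, between 1.47 and 1.51 in the amygdala libraries and between 3.21 and 3.62 in the cortex libraries of the second.

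An index over all 10 genes summarised the balance of the loop. It was the mean log2 CPM of Per1, Per2, Per3, Ciart, Nr1d1, Nr1d2 and Dbp minus that of Arntl, Clock and Cry1, with the mean of the 8 libraries set to 0, and it was not tested. The PTS + RS libraries were at -0.565 and -0.350 and the RS libraries at -0.366 and -0.379. The second-experiment cortex libraries were at 0.732 (inhibitor) and 0.606 (NaCl) and the amygdala libraries at 0.246 (inhibitor) and 0.0761 (NaCl). The index subtracts Cry1, although Cry1 is itself a target of the Arntl and Clock pair and was higher in the second experiment. The order of inhibitor and NaCl in cortex depended on the genes used. An index of Dbp, Nr1d1 and Ciart minus Arntl gave 1.21 (inhibitor) and 1.43 (NaCl) there.

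The clock genes of restrained mice with and without stroke lay close together. None of the 10 passed the threshold between PTS + RS and RS libraries by edgeR, DESeq2 or limma-voom, where 3.55% of 17581 genes did (2.96% higher and 0.586% lower). Their log2 fold changes ran from -0.30 to 0.21 with a median of -0.04, and 2 of 10 lay under an unadjusted p of 0.05, against 17.9% of all genes. Per1 was lower in both PTS + RS libraries than in either RS library (log2 fold change -0.30, SE 0.09, 95% interval -0.52 to -0.09, adjusted p = 0.146), and so was Nr1d1 (log2 fold change -0.27, SE 0.08, 95% interval -0.45 to -0.08, adjusted p = 0.136). Per3 was higher in both (log2 fold change 0.21, SE 0.09, 95% interval -0.01 to 0.43, adjusted p = 0.300). The other 7 overlapped between the groups, whereas 50.2% of all genes did not overlap (25.7% higher and 24.5% lower). For Dbp the 95% interval of the log2 difference was -0.38 to 0.20, and for Arntl -0.26 to 0.18, so a difference of the size seen between experiments in Dbp lay outside it.

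The tissue itself differed between these groups. All 12 microglia genes rose in PTS + RS (median 2.03), as did 5 of 10 astrocyte genes, and all 12 immediate early genes had values below 0 (median -0.64), 2 of them called, Egr1 (-0.78) and Nr4a1 (-0.75). Per1, which is also an activity-induced gene, had its small negative value beside these, and their part in it was not tested. Calls on the clock genes appeared under some choices. Per1 was called without a filter on low counts (-0.31, adjusted p = 0.0381) and without PTS + RS replicate 2, the library low in Ttr (-0.38, adjusted p = 0.0130). It was the 1 clock gene of 10 called in each of these fits, which called 6.1% and 14.6% of all genes. Nr1d1 and Nr1d2 were called without PTS + RS replicate 1 (-0.29 and -0.35, adjusted p = 0.0442 and 0.0211), a fit that called 9.7% of all genes.

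The HDAC3 inhibitor gave no called difference in the clock genes. HDAC3 is the deacetylase through which NR1D1 and NR1D2 repress their targets, Arntl among them, which makes this comparison of interest for the loop. The study describes RGFP109 as selective for HDAC1 and HDAC3, so the comparison is not one of HDAC3 alone. By edgeR 0 of the 10 genes and 0% of 17565 genes were called, with 206 genes (1.17%) at an unadjusted p under 0.05, none of them a clock gene, and DESeq2 and limma-voom called 0 genes too. Each group here joins a cortex and an amygdala library, so the spread within a group holds the tissue difference. Arntl was at 24.5 CPM with inhibitor and 21.5 CPM with NaCl in cortex, and at 40.1 and 40.5 CPM in amygdala. The pairs lay close within each tissue, and the interval of the fitted difference was wide (log2 fold change 0.07, SE 0.40, 95% interval -0.97 to 1.10, adjusted p = 0.9997). Dbp, at 78.6 and 77.6 CPM in cortex and 58.9 and 60.9 CPM in amygdala, had the smallest difference of the 10 (log2 fold change -0.01, SE 0.24, 95% interval -0.62 to 0.60, adjusted p = 0.9997). Cry1 had the largest and was lower with inhibitor in both tissues, at -1.03 on the log2 scale in cortex and -0.26 in amygdala (log2 fold change -0.57, SE 0.34, 95% interval -1.45 to 0.30, adjusted p = 0.9997). Ciart was the other gene whose groups did not overlap, being higher with inhibitor (log2 fold change 0.17, SE 0.20, 95% interval -0.35 to 0.69, adjusted p = 0.9997), where 26.6% of all genes did not overlap (12.8% higher and 13.8% lower). The cortex part of this comparison rests on the NaCl library that stood apart in its cortical genes, and in amygdala alone the log2 ratios of the 10 genes ran from -0.26 to 0.31. Immediate early genes, which summed to 605 CPM in the inhibitor cortex library and 1323 CPM in the NaCl cortex library, moved with the lower Per1, Per2 and Cry1 of the former, and their part was not tested.

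Between the libraries labelled amygdala and cortex within the second experiment, with treatment as a term, no gene was called by edgeR either (0% of 17565 genes, 9.15% at an unadjusted p under 0.05). DESeq2 called 156 genes higher and 53 lower and limma-voom 0, none of them a clock gene. In the usual order of their peaks, the log2 fold changes (amygdala over cortex) were -0.33 for Nr1d1, -0.40 for Dbp, 0.35 for Per1, 0.12 for Per3, 0.55 for Per2, 0.51 for Cry1 and 0.80 for Arntl. The 2 genes that peak first were thus lower in the fit and the others above 0, with Arntl, which peaks last, highest. Of these Arntl and Per2 lay under an unadjusted p of 0.05, with adjusted p = 0.439 and 0.530. Nr1d2, Ciart and Clock were at -0.05, -0.06 and 0.30. Arntl was higher in amygdala by 0.91 among NaCl and 0.71 among inhibitor libraries, and Dbp differed by -0.35 and -0.42. Nr1d1 was also lower in both pairs (-0.51 and -0.12), but neither pair alone showed the full pattern of the fit. In the NaCl pair Per3 was below 0 (-0.11) and Cry1 at 0.14. In the inhibitor pair Cry1 (0.92) and Per2 (0.77) lay above Arntl. With the spread estimated over all 8 libraries Arntl passed the threshold (0.81, adjusted p = 0.0340), as did 1.65% of all genes.

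Fits that left out a library had no treatment term, since 3 libraries leave no spread to estimate with one. With all 4 libraries and no treatment term 0 genes were called by edgeR, the same as with it, and leaving out a cortex library from that fit gave many calls over all genes. Without the NaCl cortex library, where 13.8% of all genes were called, Arntl, Cry1, Per2 and Per1 were called higher in amygdala (0.71, 1.05, 0.72 and 0.51). Without the inhibitor cortex library, where 28.7% of all genes were called, Arntl and Per2 were called higher (0.90 and 0.40) and Dbp and Nr1d1 lower (-0.38 and -0.39). In both of these fits the tissue left with 1 library is taken to vary like the other. Libraries labelled amygdala also held more of 10 striatal genes, at 1085 and 1141 CPM against 173 and 228 CPM, and of glucocorticoid-induced genes (11 of 12 above 0, median 1.04), and tissue, phase of collection and hormone exposure cannot be told apart here.

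**Figure D4:**
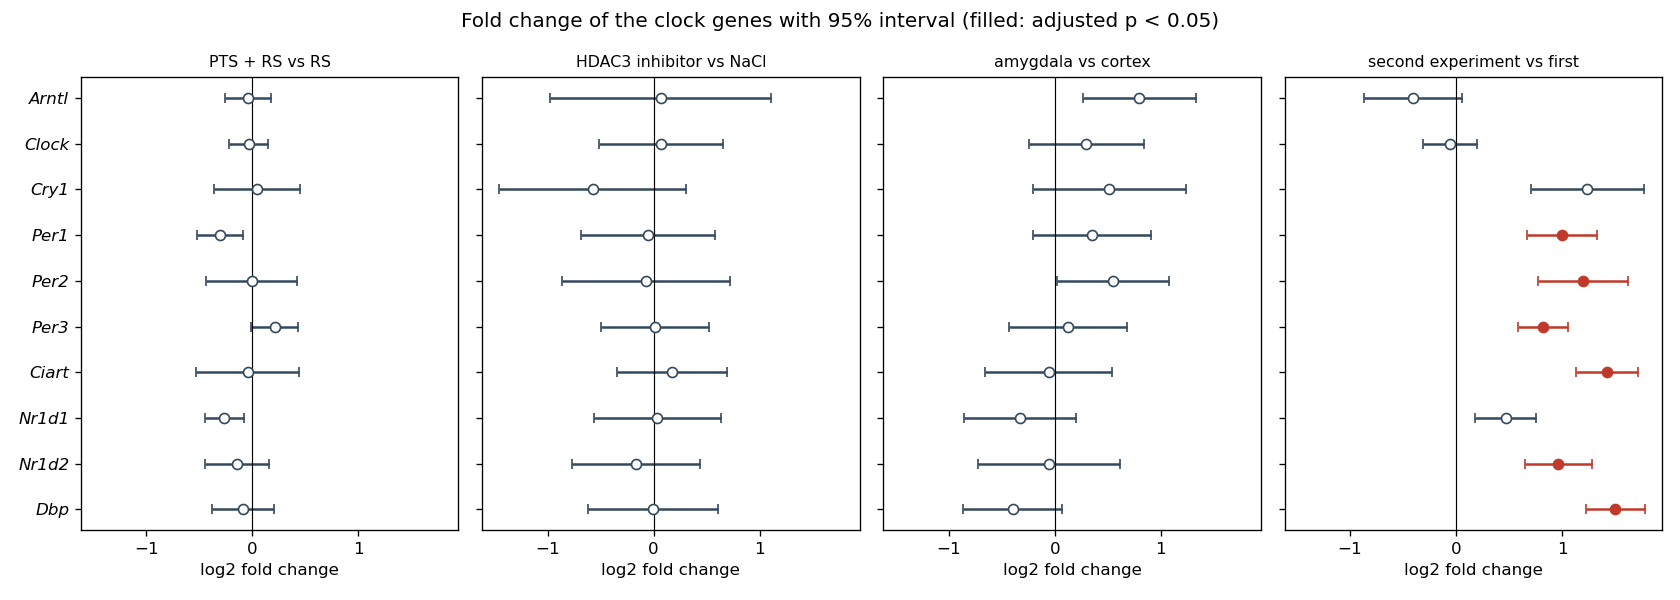
Log2 fold change (horizontal axis) of each clock gene with its 95% interval in 4 comparisons by edgeR, filled red where the adjusted p was under 0.05. Filled points occur only in the comparison of the second experiment with the first, for Per1, Per2, Per3, Ciart, Nr1d2 and Dbp, and all intervals of PTS + RS against RS lie within 0.53 of 0.

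The other genes of the clock had a smaller median fold change between the experiments. Of 19 other clock genes, including Cry2, the ROR genes, the PAR-bZIP factors Tef and Hlf and the casein kinases, 0 were called in any of the 4 comparisons by edgeR's quasi-likelihood test. At an unadjusted p under 0.05 there were 3 in PTS + RS against RS, 0 with the inhibitor, 4 between tissues and 5 between the experiments. The shares of all genes under that p were 17.9%, 1.17%, 9.15% and 16.4% in the same order. Between the experiments 15 of the 19 had fold changes above 0, with a median of 0.27 against 0.98 for the 10 genes. Bhlhe41, an E-box repressor, came nearest to the threshold, with 26.2 to 30.0 CPM in the first experiment and 37.0 to 42.8 CPM in the second (0.51, adjusted p = 0.0736). It was followed by Cry2 (0.50) and Tef (0.41), none of whose libraries overlapped between the experiments, as in 10.3% of all genes. In PTS + RS against RS the smallest p-values belonged to Cry2 (-0.30), Rorb (0.64) and the deubiquitinase gene Usp2 (-0.23), with adjusted p = 0.0938, 0.110 and 0.264. With the inhibitor they belonged to Rorb (0.54), Fbxl21 (0.58) and Csnk1e (-0.32), and between tissues to Bhlhe40 (0.75), Hlf (0.65) and Rora (0.85).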

How the data were processed

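The 10 genes, the other gene lists and the comparisons were chosen with earlier results of these data known. Read counts per gene were deposited by the authors in a table for each experiment; per the labels and the submitters' processing notes, reads were aligned to GRCm38/mm10 with STAR 2.4.0 and counted with HTSeq 0.6.1. Labels and paper name different library kits. A further 16 per-library columns, and the authors' fold changes and p-values, were not used. All 28229 genes of the second table were matched to the first by position, length, strand and biotype. From the deposited counts, edgeR 4.0.16 (R 4.3.3) gave a quasi-likelihood test per comparison after its default filter on low counts and TMM scaling, called at an adjusted p under 0.05. Alternatives were other scaling, no filter, DESeq2 1.42.0, limma-voom (limma 3.58.1), all 8 libraries in 1 fit, the replicate number as a block, and leaving out each library. The fits were tested on simulated counts. Levels are CPM scaled by TMM over 8 libraries; log2 CPM used a prior count of 2. Count ratios have exact 95% binomial intervals, for counting error only. Depth was 15902013 to 21712033 counts per library.

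The text names the 10 genes, the genes with the smallest p of each other list, and the 5 genes most like Dbp and Arntl. The lists held other clock genes, glucocorticoid-induced, immediate early and temperature-responsive genes, and markers of microglia, astrocytes, oligodendrocytes, neurons, endothelium, choroid plexus, cortex, amygdala and striatum. No pair of replicates had counts alike within sampling noise. The comparison of the experiments and the count ratios were added after the levels were seen. Promoter windows are RefSeq on GRCm38.p6 (1 gene, Per2, not analysed there).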

Additional observations from a re-analysis of the deposited data

Results flagged for a closer look

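In 8 of the 10 clock genes the single inhibitor library of cortex differed from its NaCl library in the opposite direction to that of amygdala, as in 51.2% of all 18466 genes. With ratios nearer to 0 than 0.1 in either tissue left out, it was 5 of 6 clock genes against 51.4% of all genes. This contrast between tissues was not tested, since each combination is 1 library. The log2 ratio of inhibitor over NaCl was -0.28 in cortex and 0.12 in amygdala for Per1, -0.31 and 0.089 for Per2, and -0.25 and 0.25 for Per3. It was -0.14 and 0.25 for Nr1d1, -0.53 and 0.21 for Nr1d2, and -0.17 and 0.26 for Clock. Arntl, the activator, was at 0.19 in cortex and -0.011 in amygdala, and Dbp was at 0.018 and -0.049. The cortex ratios rest on the NaCl library that stood apart in its cortical genes, with 4 of 10 below and 5 above the range of the other cortex libraries. The part of tissue composition in these ratios was not tested.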

How the results depend on the processing

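The libraries per group, 2 of each, and a time of collection that is not given limit every comparison. A gene that did not pass the threshold may still differ, within the range its interval gives. In PTS + RS against RS, DESeq2 called 187 genes lower, no filter gave 1119 genes higher and 716 lower with 1 clock gene lower, and all 8 libraries in 1 fit gave 195 and 9. With replicate number as a block this comparison called 687 genes higher and 228 lower and 0 clock genes; same-numbered libraries shared only a number (correlation of deviations 0.036), and in the second experiment the number is the tissue label (0.269), where the block gave 0 calls. The block changed no call on a clock gene. Leaving out 1 library gave 339 to 1413 genes higher, 32 to 1278 lower and 0 to 2 clock genes lower, and the fold changes that changed sign ran as follows: Per2 -0.31 to 0.24, Arntl -0.0970 to 0.0106, Clock -0.10 to 0.0232, Nr1d2 -0.35 to 0.0289, Ciart -0.21 to 0.11, Cry1 -0.0943 to 0.17. In HDAC3 inhibitor against NaCl, leaving out 1 library gave 0 to 15 genes higher and 0 to 78 lower, the calls coming without the NaCl amygdala library, with fold changes of Per1 -0.35 to 0.20, Per2 -0.49 to 0.26, Per3 -0.19 to 0.19, Arntl -0.32 to 0.60, Clock -0.20 to 0.31, Nr1d1 -0.19 to 0.31, Nr1d2 -0.35 to 0.0529, Dbp -0.24 to 0.19. Values near 0 also changed sign for Dbp (0.00117 with DESeq2 size factors, 0.00108 with DESeq2) and Per3 (-0.00277 with limma-voom, -0.000135 with the replicate block, -0.00127 with all 8 libraries). In amygdala against cortex, DESeq2 called 156 and 53 genes, no filter 187 and 53, and all 8 libraries in 1 fit 240 and 65 with 1 clock gene higher. Leaving out 1 library, without a treatment term, gave 0 to 2831 genes higher, 0 to 2552 lower, 0 to 4 clock genes higher and 0 to 2 lower, with Nr1d2 -0.31 to 0.23, Ciart -0.21 to 0.11. Between the experiments, DESeq2 called 607 and 366 genes with 8 clock genes higher, and the tissue term gave 11 and 39 genes with 2 clock genes higher and 1 lower. The cortex libraries gave 0 genes and 0 clock genes against PTS + RS, and 1 and 2 genes with 1 clock gene against PTS + RS and RS. Leaving out 1 library gave 2 to 506 genes higher, 3 to 531 lower and 2 to 7 clock genes higher, and Clock -0.15 to 0.0188. The cause of these changes was not tested. An index of Dbp, Nr1d1 and Ciart minus Arntl gave -0.909 and -0.766 for PTS + RS, -0.731 and -0.759 for RS, 1.21 and 1.43 for the cortex and 0.355 and 0.173 for the amygdala libraries of inhibitor and NaCl.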

Other observations

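Over the 8 libraries, each centred within its experiment and tissue label, the genes whose log2 level followed Arntl most closely among 10648 genes with a mean of at least 10 CPM were Prlr (Pearson r = 0.997), Ttr (0.991), Aifm3, Crb2 and Trpm4. Prlr and Ttr are abundant in the choroid plexus, and Ttr ranged over 10.03 log2 units after centring while Arntl ranged over 0.191. Those most like Dbp were Gmcl1 (0.981), Dph6, Nfs1, Neu1 and Armc5, with Dbp ranging over 0.274 log2 units. These are descriptions over 8 points that share the scaling of their libraries. Each tissue label of the second experiment holds a pair of libraries whose centred values mirror each other, so the 8 points are not all free to vary. The genes named were picked as the closest of 10648.

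Remaining marker lists were measured in the same libraries. Choroid plexus genes summed to 1651 and 51.1 CPM in PTS + RS, 1889.9 and 3947 CPM in RS, 1532 CPM in the inhibitor cortex library and 15.1 to 45.7 CPM in the other 3. Neuronal genes summed to 6699.5 to 7629.5 CPM in the first experiment and 7778 to 8661 CPM in the second, astrocyte genes to 4753 to 8029 and 3964 to 5970.0 CPM, and endothelial genes to 373 to 439 and 419.6 to 463 CPM. Cortical genes summed to 1002 to 1125 CPM in 5 of the cortex libraries, 673 CPM in the NaCl cortex library and 1354 and 1204 CPM in the amygdala libraries. Without Nptx1, the most abundant of them, the other 9 summed to 359 to 440.2 CPM in the same 5 and 529.9 CPM in the NaCl cortex library, which then lay highest of the cortex libraries. Amygdala genes summed to 425 and 520.1 CPM in the amygdala libraries against 73.6 to 203 CPM in the 6 cortex libraries. Most of the sum in the amygdala libraries was Ppp1r1b, at 299 and 389 CPM against 31.1 to 67.0 CPM in the cortex libraries. Of the others, Tac2 and Lypd1 also lay above every cortex library in both, and Rspo2, Prkcd, Dlk1, Crh, Nts and Cyp26b1 did not. Temperature-responsive genes, which include heat-shock genes, summed to 2912 to 3414 CPM in the first experiment and 2470.1 to 2832 CPM in the second.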
